A study of Mus musculus with 2 samples.

Results

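The bone morphogenetic protein (BMP), growth and differentiation factor (GDF) and activin ligands examined here were 10 genes chosen by name: Bmp2, Bmp3, Bmp4, Bmp5, Bmp6, Bmp7, Gdf10, Gdf11, Inhba and Inhbb. Each had 1 row among the 32285 genes of the deposited count tables. On GRCm38 the genes lie apart: Bmp2 at chr2:133552159-133562885, Bmp3 at chr5:98854415-98884396, Bmp4 at chr14:46383520-46390669, Bmp5 at chr9:75775364-75900310, Bmp6 at chr13:38345107-38500302. The others are Bmp7 at chr2:172868012-172940321, Gdf10 at chr14:33923587-33937983, Gdf11 at chr10:128882295-128891718, Inhba at chr13:16011851-16031621 and Inhbb at chr1:119415465-119422248. They were measured by droplet single-cell RNA sequencing in mesenchymal cells of the large intestine of adult mice more than 8 weeks old. The cells were sorted as gp38-positive (podoplanin, a surface protein of fibroblasts) and negative for the leukocyte marker CD45, the epithelial marker EpCAM and the endothelial marker CD31. The GF library came from Balb/c mice and the ff library from C57BL/6 mice, with 1 library each. The series text names germ-free mice, and GF is the only label that ties this status to a library. The labels leave ff unexplained and name no allele or agent for either library. Strain, germ-free status and library therefore cannot be told apart, no difference between the libraries has a replicate check, and no test between them was made.

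These ligands belong to the transforming growth factor beta superfamily. They are secreted as dimers that bind pairs of type I and type II serine/threonine kinase receptors. BMPs act mainly through SMAD1, SMAD5 and SMAD9, and activins and GDF11 through SMAD2 and SMAD3. In the colon, BMP signalling is known to be strong near the luminal surface and weak at the crypt base, where secreted antagonists such as gremlin bind the ligands. Subepithelial cells that express the transcription factor Foxl1, called telocytes, are a known source of BMPs.

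After filtering, the GF library held 14299 cells with a median of 6351 UMIs (unique molecular identifiers, 1 per captured transcript), and the ff library 12164 cells with a median of 8861.5. Fibroblast-like clusters made up 87.4% of the GF cells and 96.2% of the ff cells, and together form the pool used below. The 2 libraries shared 45 barcodes among the retained cells. The ligands and the genes of their pathway were left out of the genes used for clustering. A Foxl1-high-like class of 3 clusters held 1025 GF cells and 2112 ff cells, or 8.20% and 18.05% of the pool, shares that the sort can set. Of its 14 marker genes, Foxl1, Sox6, Pdgfra, F3, Wnt5a and Fgf9 were at least 2-fold higher in each of its 3 clusters than in all other cells. Frzb, Plat and Vstm2a were so in none, and Vstm2a had no UMI in the class. The same markers named the clusters. Markers of epithelium summed to 3.3 CPM (UMIs of the gene per 1000000 UMIs) in the GF class and 5.8 CPM in the ff class, and markers of smooth muscle to 273 and 162 CPM, against 100.5 and 89.6 CPM in the other fibroblast-like cells. Pericyte markers summed to 185 CPM in the GF class and 149 CPM in the ff class, against 57.1 and 62.7 CPM in the other cells. Markers of interstitial cells of Cajal, the pacemaker cells of the gut wall, summed to 168 and 159 CPM, against 34.1 and 35.4 CPM. Cspg4, Kcnj8, Abcc9, Ano1 and Etv1 of these lists were among the markers of the Wif1-led and Fgfbp1-led clusters, and their part in the class differences was not tested. Other classes were lamina propria-like (1969 GF and 1553 ff cells), adventitial or submucosal-like (2706 and 2411) and reticular-like (823 and 1245, 1 cluster led by the interferon-induced gene Cxcl9). Of 7 reticular markers, Ccl19, Cxcl13 and Vcam1 were at least 2-fold higher there, and Ccl21a, Tnfsf11, Madcam1 and Il7 were not. Together the 7 summed to 2138 CPM in the GF and 742 CPM in the ff cells of this class. A collagen-rich remainder without a name held 5977 GF and 4381 ff cells. Clusters are called by their leading gene over both libraries combined. In the remainder, the adventitial or submucosal markers Cd81, Ackr4 and Igfbp6 were at least 2-fold higher in the Ntrk3-led and Ptn-led clusters. So were pericyte markers such as Rgs5 in the Ptn-led cluster, and lamina propria markers such as Adamdec1 and Tcf21 in the Cx3cr1-led cluster. None of these clusters met the naming rule.

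Bmp4 was the most abundant of the 10 ligands in the pool, at 661 CPM in GF and 738 CPM in ff. Bmp4 and Bmp2 are closely related ligands that bind the type I receptor BMPR1A. Bmp2 stood at 220 CPM in GF and 291 CPM in ff, and Bmp5 at 136 and 333 CPM. These 3 genes held 79.5% of the summed ligand UMIs in GF and 82.9% in ff. A 3' library counts each transcript once, so these levels need no correction for gene length, though capture can differ between genes. Bmp6 followed at 87.4 CPM in GF and 102 CPM in ff, then Bmp7 at 58.7 and 66.9 CPM and Bmp3 at 49.0 and 44.1 CPM. Bmp5, Bmp6 and Bmp7 form a subgroup that signals through ACVR1 among other type I receptors, while BMP3 is known as a ligand that opposes other BMPs. Gdf10, a relative of Bmp3, stood at 28.3 CPM in GF and 14.8 CPM in ff. Inhba, the subunit of activin A, stood at 27.3 and 30.4 CPM. Gdf11, a relative of myostatin, had 9.92 CPM in GF and 21.2 CPM in ff, and Inhbb, the subunit of activin B, 1.28 and 2.08 CPM. Inhbb rested on 112 UMIs in GF and 220 in ff.

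**Figure D1:**
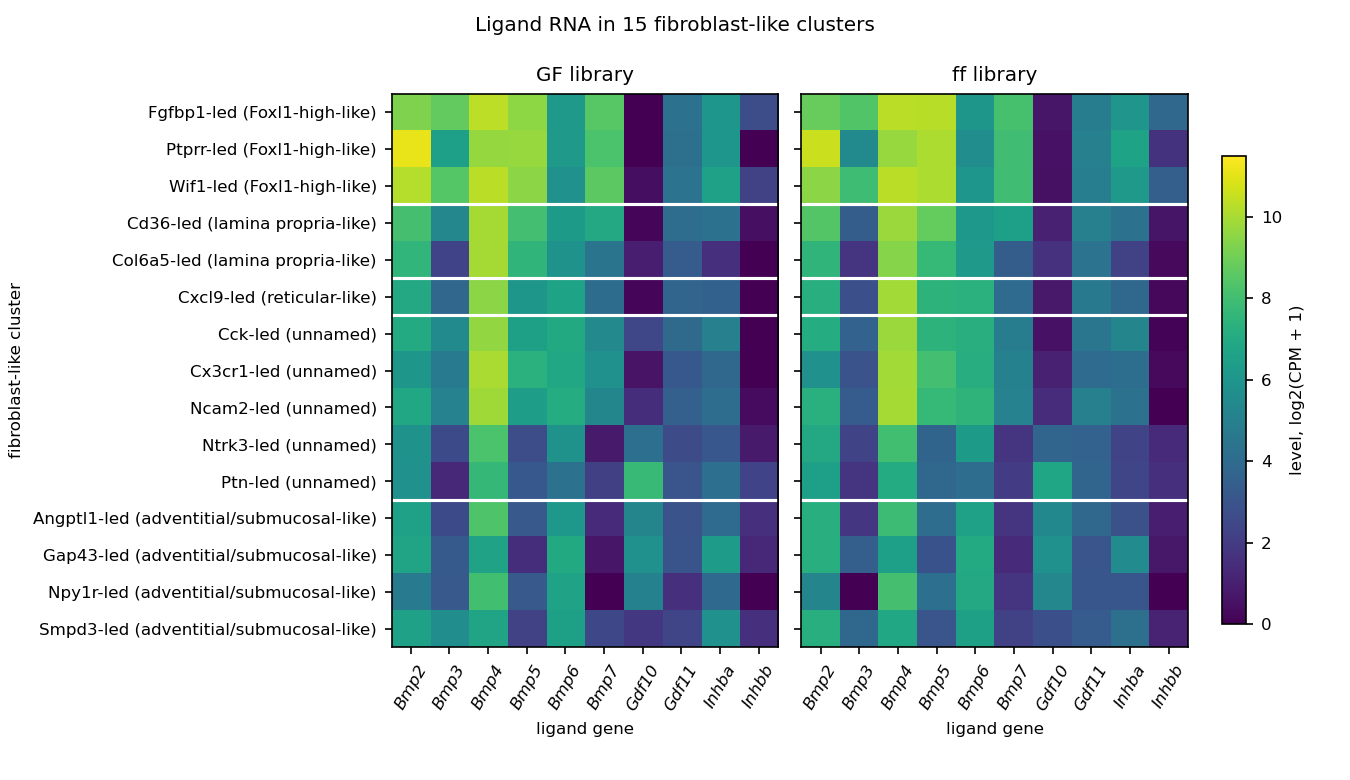
Level of each ligand, as log2(CPM + 1), in 15 clusters of the pool, all with 50 or more GF cells and 50 or more ff cells, with the GF library on the left and the ff library on the right; white lines separate the classes. The 3 Foxl1-high-like clusters at the top are the brightest for Bmp2, Bmp3, Bmp5 and Bmp7. Bmp4 is bright in other clusters too, and its 836 CPM in the Ptprr-led cluster of ff is the median of the 15. Gdf10 is brightest in the Ptn-led cluster, at 215 CPM in GF and 111 CPM in ff.

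The Foxl1-high-like cells held more ligand RNA than the other fibroblast-like cells of the same library. The 10 ligands summed to 4089 CPM in Foxl1-high-like cells against 1004 CPM in other fibroblast-like cells of GF, a log2 ratio of 2.03 (95% counting interval 2.01 to 2.05). In ff they summed to 3780 against 1164 CPM, a log2 ratio of 1.70 (1.69 to 1.71). Of the 10 ligands, 8 were at least 1.5-fold higher in this class of the GF library, a fold that 17.5% of all 13441 measured genes reached. In ff 7 were at least 1.5-fold higher, against 12.8% of all 13790 measured genes. Lower by that fold were 1 ligand in GF (Gdf10), against 14.4% of all genes, and 2 in ff (Gdf10 and Bmp6), against 13.7%. The median log2 ratio of the 10 ligands was 1.55 in GF and 2.17 in ff, and that of all measured genes 0.16 and 0.10. Scaling by median-of-ratios size factors in place of total UMIs lowered all class ratios by 0.24 in GF and 0.16 in ff on the log2 scale.

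Bmp2, Bmp3, Bmp5 and Bmp7 had the steepest class differences among the ligands with over 200 UMIs in the class. Bmp2 stood at 1255 CPM in Foxl1-high-like cells and 118 CPM in other cells of GF, and at 867 and 161 CPM in ff (log2 ratios 3.40 and 2.42). Bmp3 stood at 325 and 22.0 CPM in GF and at 207 and 7.52 CPM in ff (3.83 and 4.61). Bmp7 stood at 373 and 27.9 CPM in GF and at 256 and 24.4 CPM in ff (3.70 and 3.34). Counting intervals of the classes did not overlap for any of the 3 genes in either library. Bmp5 had 745 and 76.8 CPM in GF, and 1106 and 160 CPM in ff (3.26 and 2.78), again with no overlap. Bmp4 differed less, at 1221 and 606 CPM in GF and 1166 and 642 CPM in ff (1.01 and 0.86). By rank among all genes of the Foxl1-high-like cells, Bmp2 was 110th and Bmp4 116th in GF, and Bmp4 139th, Bmp5 144th and Bmp2 183rd in ff.

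The activin subunits and Gdf11 were also higher in the Foxl1-high-like class, from lower levels. Inhba had 87.4 CPM in Foxl1-high-like cells and 21.4 CPM in other cells of GF, and 77.8 and 19.7 CPM in ff (log2 ratios 1.98 and 1.93). Inhbb had 27 UMIs in the class in GF, or 3.47 CPM against 1.07 CPM, and 170 UMIs in ff, or 8.76 against 0.579 CPM. Its ratio was 3.24-fold in GF and 15.1-fold in ff without a pseudocount. Gdf11 had 19.3 and 9.005 CPM in GF (1.02) and 29.5 and 19.4 CPM in ff (0.58), where it fell just short of 1.5-fold. Some clusters outside the class reached such levels. In GF, Inhba stood at 79.1 CPM in the Gap43-led cluster, against 65.1 CPM in the Ptprr-led cluster of the class. Inhbb in GF stood at 4.04 CPM in the Ptn-led cluster, against 3.71 CPM in the Wif1-led cluster of the class. In ff, Gdf11 was highest in the Cd36-led cluster, at 31.3 CPM. The highest cluster was Foxl1-high-like for Inhba and Inhbb in both libraries and for Gdf11 in GF. In lymphocyte-like cells Gdf11 stood at 7.51 CPM in GF (24 UMIs) and 10.4 CPM in ff (7 UMIs), while Bmp4 stood at 10.0 CPM in those of GF.

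Bmp6 and Gdf10 ran the other way. Bmp6 had 59.8 CPM in Foxl1-high-like cells and 90.1 CPM in other cells of GF, and 61.0 and 111 CPM in ff (log2 ratios -0.58 and -0.86). In GF this fell just short of 1.5-fold. Txndc5, a gene that overlaps Bmp6 on the other strand, was also lower in the class. It stood at 161 against 188 CPM in GF and 136 against 195 CPM in ff. The labels do not say whether counting used strand, so reads of Bmp6 and Txndc5 may not be told apart. Gdf10 was almost absent from the class, with 2 UMIs in GF (0.257 CPM against 31.1 CPM in other cells) and 9 UMIs in ff (0.464 against 18.03 CPM). Without a pseudocount Gdf10 was 121-fold lower in the GF class (interval 33.5 to 1001) and 38.9-fold lower in the ff class (20.4 to 85.2).

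**Figure D2:**
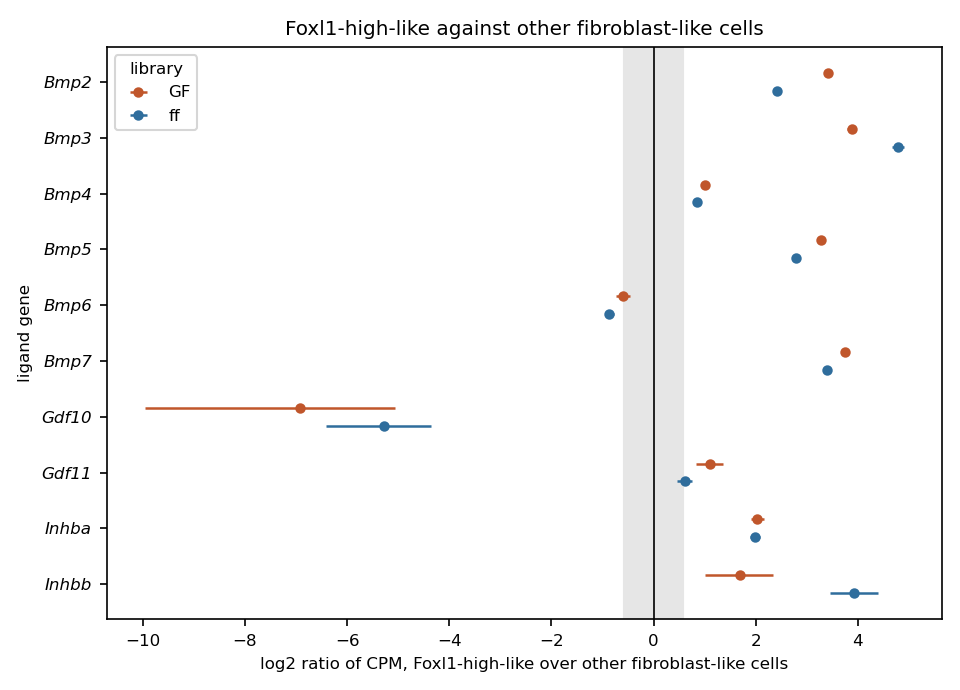
Log2 ratio of CPM without a pseudocount, Foxl1-high-like cells over the rest of the pool, for each ligand in GF (upper point of each pair) and ff (lower point); bars are exact 95% counting intervals and the grey band marks ratios under 1.5-fold. Bmp2, Bmp3, Bmp5 and Bmp7 lie far to the right in both libraries, and Gdf10 lies far to the left on 2 and 9 UMIs.

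The class contrast was smaller when cells were gated by single markers. With cells kept on any fibrillar collagen UMI and no UMI of Ptprc, Epcam, Pecam1 or Cdh5, and Foxl1-high taken as any Foxl1 UMI, the summed log2 ratio was 1.34 in GF and 1.07 in ff. The gate kept 929 Foxl1-positive cells of 12823 in GF and 1053 of 11825 in ff, of which 48.0% and 64.4% lay in the Foxl1-high-like clusters. Bmp2 had a log2 ratio of 2.14 in GF and 1.60 in ff under this gate, Bmp3 2.27 and 1.93, Bmp5 2.10 and 1.59, and Bmp7 2.43 and 1.91. Inhbb dropped to 0.05 in GF and 0.71 in ff. Foxl1 itself is sparse, with 706 UMIs in the 1025 GF cells and 1069 UMIs in the 2112 ff cells of the class.

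In single cells, several ligands were usually seen together in the Foxl1-high-like class. Cells were thinned to 2000 UMIs so that depth was equal, which left out 3 GF and 15 ff cells of the class. At least 3 of the 10 ligands were then detected in 80.3% of Foxl1-high-like cells and 10.4% of the other pool cells of GF, and in 81.4% and 14.3% of those of ff. Bmp4 was detected in 86.6% of Foxl1-high-like and 59.3% of other cells of GF, and in 87.6% and 60.4% of those of ff (unthinned, 98.5% and 80.8%, and 99.1% and 84.2%). Bmp7 was detected in 47.4% and 5.28% of cells in GF, and in 38.3% and 3.85% in ff (unthinned, 87.3% and 13.4%, and 82.4% and 15.4%). In lymphocyte-like cells, thinned Bmp4 was detected in 1.29% of GF and 9.33% of ff cells, and Bmp7 in 0.107% and 1.33%. The 96 unthinned Bmp4 UMIs of ff lay in 15 of its 75 lymphocyte-like cells. Whether they came from free RNA, mixed droplets or the cells themselves was not tested. Lymphocyte-like cells had median depths of 2547 UMIs in GF and 4219 UMIs in ff, against 7248 and 8748.5 UMIs in the Foxl1-high-like class. For pairs of ligands inside the class, the share of cells with both was close to the product of the single shares. Bmp4 and Bmp5 were both seen in 59.9% of GF cells, where the product is 59.1%, and in 76.5% of ff cells, where it is 76.5%. Bmp2 and Bmp3 were seen together in 30.1% of GF cells, where the product is 31.7%, and in 16.6% of ff cells, where it is 19.3%.

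Bmp2 and Bmp3 favoured different clusters of the Foxl1-high-like class. The Wif1-led cluster is the largest (708 GF and 1490 ff cells) and carries the Wnt inhibitor Wif1. The Ptprr-led cluster (136 and 372 cells) has the epidermal growth factor family ligand Nrg1 among its leading genes. Nrg1 was also a marker at least 2-fold higher in the Wif1-led and Cd36-led clusters, as was Wif1 in the Fgfbp1-led cluster. Bmp2 had 1194 CPM in the Wif1-led and 2242 CPM in the Ptprr-led cluster of GF, and 717 and 1533 CPM in ff (log2 ratios -0.91 and -1.10). Bmp3 had 349 and 90.0 CPM in GF, and 241 and 42.8 CPM in ff (1.94 and 2.47). In both libraries Bmp2 was thus lower and Bmp3 higher in the Wif1-led cluster, with counting intervals that did not overlap. Bmp4 was the other ligand at least 1.5-fold higher in the Wif1-led cluster in both libraries, at 1276 against 818 CPM in GF and 1254 against 836 CPM in ff. Of the ligands measured, 2 of 8 were at least 1.5-fold higher in GF and 3 of 9 in ff, against 13.7% and 11.2% of all genes. Bmp2 was the 1 ligand lower by that fold in each library, against 7.74% of all genes in GF and 7.06% in ff. Inhbb was the third higher one in ff, at 10.2 against 2.18 CPM. Bmp5 and Bmp7 differed by less than 1.5-fold between these clusters in both libraries. The third cluster, led by Fgfbp1, held 181 GF and 250 ff cells and had the highest Bmp3 of all 15 clusters, at 426 CPM in GF and 334 CPM in ff. Over the whole class, Fgfbp1 had 4857 UMIs in GF (623 CPM) and 18 UMIs in ff (0.927 CPM). The name of this cluster therefore rests on GF cells, and its ff cells nearly lacked Fgfbp1.

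The adventitial or submucosal-like cells had the lowest summed ligand level of the fibroblast-like classes, at 479 CPM in GF and 516 CPM in ff. Within the unnamed class, the Ptn-led cluster summed to 530 CPM in GF and 387 CPM in ff, and the Ntrk3-led cluster to 463 and 506 CPM. The ranking of the classes therefore depends on how these clusters were named. Lamina propria-like cells, named by markers with no position measured, had 1636 CPM in GF and 1672 CPM in ff. Bmp5 had 5.399 CPM in adventitial or submucosal-like and 225 CPM in lamina propria-like cells of GF, and 12.8 and 371 CPM in ff (log2 ratios -5.14 and -4.75). Bmp7 had 2.70 and 75.4 CPM in GF, and 2.93 and 64.9 CPM in ff (-4.37 and -4.07). Bmp4 had 186 and 988 CPM in GF, and 185 and 820 CPM in ff (-2.41 and -2.14). Bmp2 and Gdf11 were also lower, so 5 of 9 measured ligands were at least 1.5-fold lower in GF, against 26.3% of all genes, and the same number in ff, against 16.6%. Gdf10 was higher, at 24.2 CPM in adventitial or submucosal-like and 0.506 CPM in lamina propria-like cells of GF, and at 33.2 and 1.41 CPM in ff (4.07 and 3.83). Inhba differed between the libraries here, with 43.4 and 10.8 CPM in GF (1.91) and 15.9 and 14.6 CPM in ff (0.11). Higher by 1.5-fold were thus 2 ligands in GF, against 10.4% of all genes, and 1 in ff, against 10.6%. Bmp3 and Bmp6 differed by less than 1.5-fold between these classes in both libraries.

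Reticular-like cells had Bmp4 at 731 CPM in GF and 963 CPM in ff, and the highest class level of Bmp6, at 100.6 and 160 CPM. In GF the Bmp6 intervals of this class and the unnamed class overlapped. Among single clusters Bmp6 was highest in the Ncam2-led cluster of the unnamed class, at 139 CPM in GF and 176 CPM in ff. The unnamed class had Bmp4 at 671 CPM in GF and 705 CPM in ff, and most of the Gdf10 UMIs of the pool, 79.6% in GF and 56.3% in ff. Its make-up differed between libraries, since the Ncam2-led cluster held 2756 GF and 218 ff cells and the Cck-led cluster 210 and 2207. Gdf10 was concentrated in the Ptn-led cluster, at 215 CPM in GF and 111 CPM in ff, followed by the Gap43-led cluster at 54.7 and 55.8 CPM. The Foxl1-high-like class, with 8.20% of the GF pool and 18.05% of the ff pool, held 59.2% and 86.1% of the Bmp3 UMIs. It held 56.8% of the Bmp7 UMIs in GF and 70.2% in ff, 51.1% and 54.7% of Bmp2, and 48.7% and 60.9% of Bmp5. Its share of Bmp4 was 16.5% in GF and 28.99% in ff, so most Bmp4 RNA of the pool lay in other fibroblast-like cells.

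**Figure D3:**
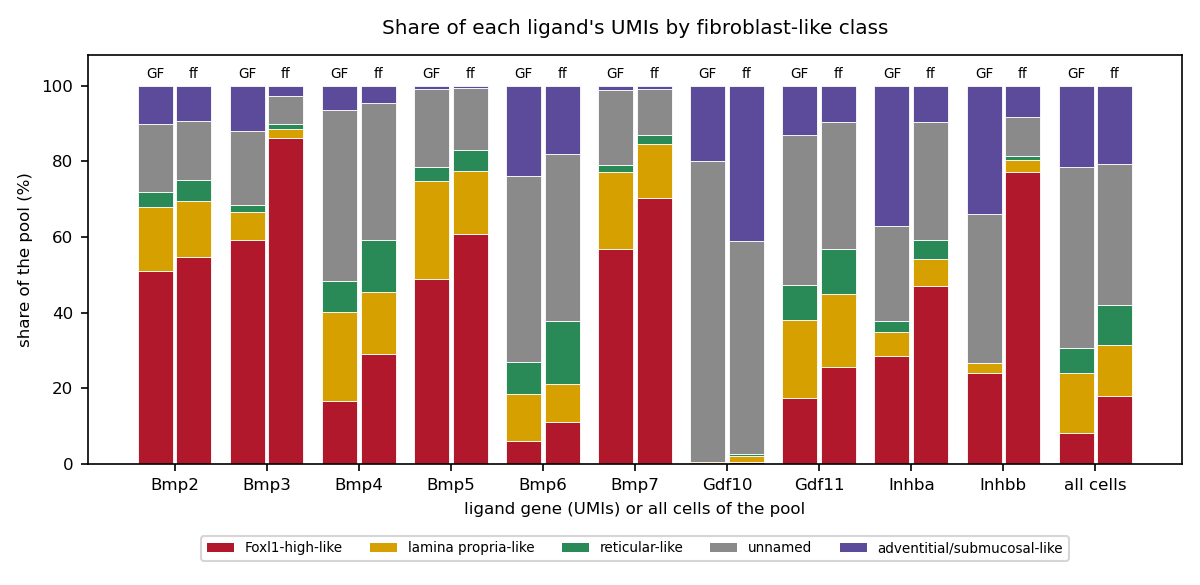
Share of each ligand's UMIs in the fibroblast-like pool that came from each class, in percent, for GF (left bar) and ff (right bar), with the share of all pool cells at the far right. The Foxl1-high-like share of Bmp3 is 59.2% in GF and 86.1% in ff, and its share of Gdf10 is under 1% in both.

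**Figure D4:**
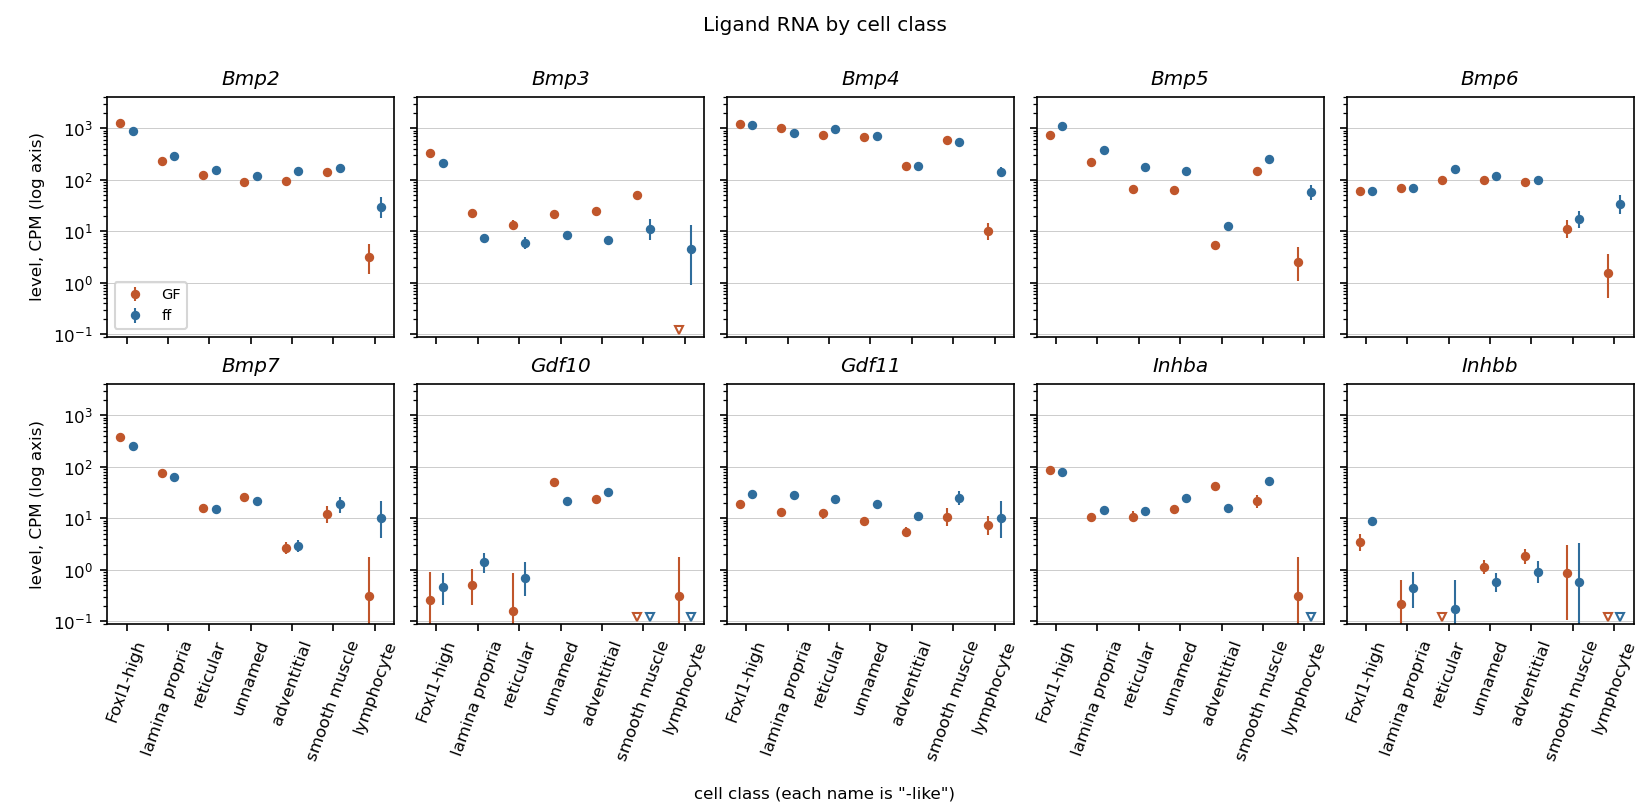
Level of each ligand in CPM on a log axis by cell class, with GF left of ff; points are sums over the cells of a class, bars are exact 95% Poisson intervals for counting error, and open triangles mark classes with no UMI. Smooth muscle-like and lymphocyte-like cells are outside the fibroblast-like pool, and Bmp4 in lymphocyte-like cells stands at 10.0 CPM in GF and 142 CPM in ff. The ff value rests on 96 UMIs in 15 of 75 cells.

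Outside the pool, smooth muscle-like cells (377 GF and 194 ff) had Bmp4 at 581 CPM in GF and 535 CPM in ff and Bmp5 at 150 and 251 CPM. Foxl1 was high in these cells too, at 66.2 CPM in GF and 52.0 CPM in ff. Gdf10 had no UMI there, and 3 counts would be 1.29 CPM in GF and 1.75 CPM in ff. Lymphocyte-like cells numbered 1123 in GF and 75 in ff.

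Levels followed one another across clusters in blocks. Over 30 points (15 clusters in each of 2 libraries, log2(CPM + 1), centred within a library), Pearson's r was 0.95 for Bmp5 with Bmp7 and 0.93 for Bmp5 with Bmp4. Gdf10 ran against Bmp5 (r = -0.84), and Bmp6 followed neither of these (0.01 with Bmp5 and -0.33 with Gdf10). The points share libraries and depth, so these values describe the clusters and carry no test. Among 11597 other genes, the profile of Bmp7 was closest to that of Foxl1 (0.97), a gene used as a class marker, then Col24a1 and Ica1. Bmp5 was closest to Sema3f (0.98), Foxf2 and Ica1, Bmp4 to Fam174b (0.95), Pcdh7 and Pitx1, and Bmp2 to Slk (0.91), Prom1 and Insc. Gdf10 was closest to Meis2 (0.94), Myoc and Gas1, and Gdf11 to Rdh10 (0.93), Hs3st3a1 and Palld. Bmp3 was closest to Tln1 (0.89), Myl12a and Parva, Inhba to Trir (0.85), Ndfip1 and Ubxn1, and Inhbb to Gpr39 (0.84), Fam180a and Slc25a4. Bmp6 had the weakest closest match, Sdc2 at 0.78, followed by Adamtsl4 and Cacnb1.

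The promoters of Bmp5 and Gdf10 are shown because these genes had opposite profiles over the clusters. Each is the window from 250 bases before to 50 after the start of the gene, from RefSeq on GRCm38.p6, written 5′ to 3′ with CG dinucleotides in capitals. Bmp5 lies at chr9:75775115-75775414 on the plus strand and Gdf10 at chr14:33923337-33923636 on the plus strand.
Bmp5: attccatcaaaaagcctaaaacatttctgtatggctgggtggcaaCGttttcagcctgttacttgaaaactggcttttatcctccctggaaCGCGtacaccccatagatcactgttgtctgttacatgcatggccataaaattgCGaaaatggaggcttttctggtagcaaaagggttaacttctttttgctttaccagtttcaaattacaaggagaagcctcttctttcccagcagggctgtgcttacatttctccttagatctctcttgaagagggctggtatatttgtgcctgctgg
Gdf10: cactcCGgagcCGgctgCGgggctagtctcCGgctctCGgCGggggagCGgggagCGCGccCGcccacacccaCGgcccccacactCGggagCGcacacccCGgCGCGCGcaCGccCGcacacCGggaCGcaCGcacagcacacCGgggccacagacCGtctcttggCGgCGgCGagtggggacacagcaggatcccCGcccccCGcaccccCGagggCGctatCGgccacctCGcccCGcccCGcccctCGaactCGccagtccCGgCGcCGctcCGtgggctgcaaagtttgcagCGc
The Bmp5 window holds 4 CG dinucleotides and is 43.3% G or C, and the Gdf10 window holds 42 and is 77.3% G or C. Over all 32851 promoters the median was 7 CG dinucleotides and 52.7% G or C; 38.04% of promoters held 4 or fewer and 3.03% held 42 or more. Windows were found for 7 of the 10 ligands, and none for Bmp2, Bmp3 or Bmp7. Of the ligands with the steepest class differences, only Bmp5 could thus be searched. The other 5 windows held 7 (Inhba), 12 (Bmp4), 23 (Inhbb), 27 (Bmp6) and 36 (Gdf11) CG dinucleotides. The forkhead motif TGTTTAC, searched on both strands, was in none of the 7 windows and in 3.65% of all promoters. The SMAD1/5 motif GGCGCC, which reads the same on both strands, was in the Gdf10 window and in 11.9% of all promoters.

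Between the libraries, the summed ligand level of the pool was lower in GF, at 1279 CPM against 1644 CPM in ff, a log2 ratio of -0.36 (95% counting interval -0.37 to -0.35). Bmp5 and Gdf11 were at least 1.5-fold lower in GF, 2 of 10 ligands against 5.51% of 14791 measured genes. Gdf10 was at least 1.5-fold higher, 1 of 10 against 4.87% of genes. The pool ratios were -1.28 for Bmp5, -1.03 for Gdf11 and 0.89 for Gdf10 on the log2 scale, and between -0.43 and 0.15 for the other 7. The GF pool had fewer Foxl1-high-like cells than the ff pool. With GF clusters weighted by their ff shares of cells, the summed ratio was -0.0045, Bmp5 was at -0.66, Gdf11 at -0.74 and Gdf10 at 0.52. The weighting turned the sign of 4 ligands, to 0.29 for Bmp2, 0.02 for Bmp4, 0.51 for Bmp7 and 0.23 for Inhba, and moved Bmp3 to 0.73.

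Bmp5 was lower in GF in each of the 13 clusters where it was measured, with log2 ratios between -1.38 in the Cxcl9-led and -0.22 in the Col6a5-led cluster. All 13 counting intervals lay below 0. In the Foxl1-high-like class Bmp5 stood at 745 CPM in GF and 1106 CPM in ff, a log2 ratio of -0.57. In the other fibroblast-like cells it stood at 76.8 and 160 CPM (-1.05). Gm26903, a gene that overlaps Bmp5 on the other strand, stood at 95.1 CPM in GF and 89.3 CPM in ff in the Foxl1-high-like class and at 5.78 and 9.20 CPM in other fibroblast-like cells. The labels do not say whether counting used strand, so reads of the 2 genes may not be told apart.

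Gdf11 was likewise lower in GF in all 13 clusters where it was measured, with ratios between -1.47 (Ncam2-led) and -0.53 (Cck-led) and 11 of 13 intervals below 0. In the lamina propria-like class it stood at 13.0 CPM in GF and 27.8 CPM in ff. After thinning, Gdf11 was detected in 3.72% of Foxl1-high-like cells of GF and 4.58% of those of ff, against 1.502% (exact 95% interval 0.824% to 2.51%) and 4% (0.833% to 11.2%) of lymphocyte-like cells. The ff interval of the lymphocyte-like cells, of which there were 75, holds the Foxl1-high-like share. Whether Gdf11 in lymphocyte-like cells came from the cells themselves or from free RNA was not tested.

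Bmp3 and Bmp7 leaned the other way inside clusters. Bmp3 was higher in GF in 10 of the 11 clusters where it was measured, each with an interval above 0, up to 1.95 in the Cd36-led cluster, and was at -0.21 in the Gap43-led cluster. In the Foxl1-high-like class Bmp3 stood at 325 CPM in GF and 207 CPM in ff (log2 ratio 0.65), and in other fibroblast-like cells at 22.0 and 7.52 CPM (1.43). Bmp7 had a positive ratio in all 11 clusters where it was measured, with 7 intervals above 0, a median of 0.37 and a highest value of 1.07 in the Col6a5-led cluster. In the Foxl1-high-like class Bmp7 stood at 373 CPM in GF and 256 CPM in ff (0.54). The pool ratio of Bmp7 was -0.19, opposite in sign to its clusters.

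Bmp2 differed by class. In Foxl1-high-like cells it stood at 1255 CPM in GF and 867 CPM in ff (log2 ratio 0.53), and in other fibroblast-like cells at 118 and 161 CPM (-0.45). All 3 Foxl1-high-like clusters had positive ratios, up to 0.74 in the Wif1-led cluster, and the Ntrk3-led cluster had the lowest, at -1.03. Of the 9 ligands measured in the Foxl1-high-like class, Bmp3 was at least 1.5-fold higher in GF, against 8.48% of genes, and Gdf11 and Inhbb were at least 1.5-fold lower, against 6.71%. Inhbb there stood at 3.47 CPM in GF and 8.76 CPM in ff. In the other fibroblast-like cells, Bmp3 and Gdf10 were at least 1.5-fold higher, against 5.08% of genes, and Bmp5 and Gdf11 at least 1.5-fold lower, against 5.32%.

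Bmp4 and Bmp6 differed little. Bmp4 was measured in all 15 clusters, with log2 ratios between -0.40 in the Cxcl9-led and 0.58 in the Ptn-led cluster, of which 9 were positive and 6 negative. Bmp6 was lowest in the Cxcl9-led cluster (-0.66), with 8 of 15 intervals below 0 and 1 above. Inhba varied most between clusters, with ratios between -0.61 in the Ptprr-led and 1.77 in the Ptn-led cluster. In adventitial or submucosal-like cells Inhba stood at 43.4 CPM in GF and 15.9 CPM in ff (1.39), and in the unnamed class at 15.3 and 25.1 CPM (-0.68). Gdf10 was measured in 5 clusters, with 0.94 in the Ptn-led cluster, where its level was highest, and -0.93 in the Smpd3-led cluster, on 24 GF and 32 ff UMIs. In adventitial or submucosal-like cells Gdf10 was lower in GF, at 24.2 against 33.2 CPM (-0.44).

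**Figure D5:**
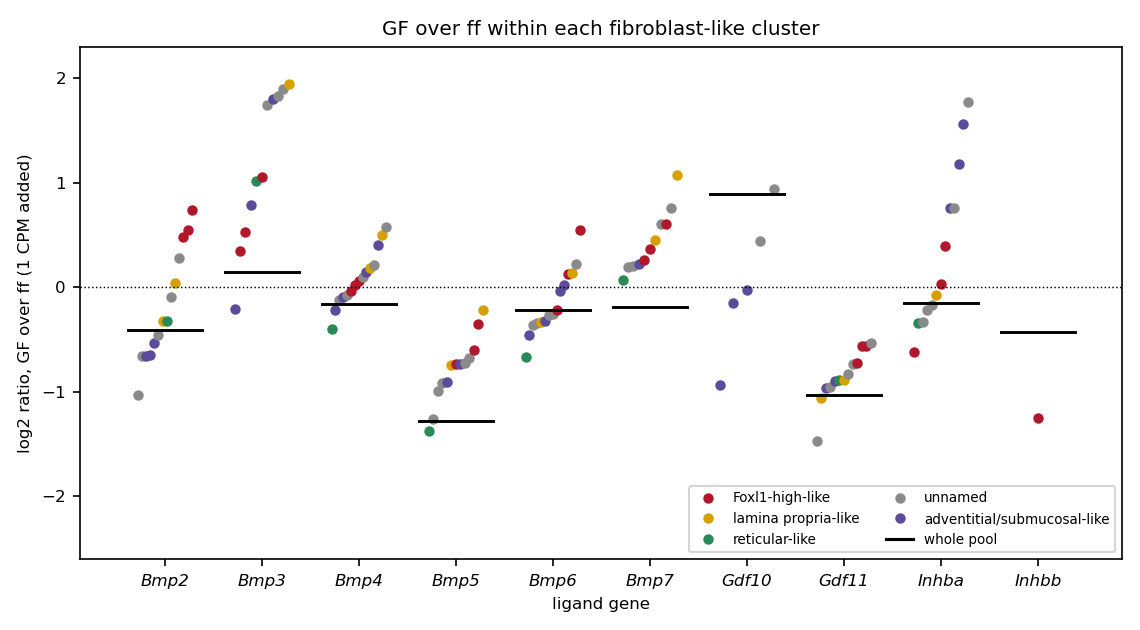
Log2 ratio of GF over ff, after adding 1 CPM, for each ligand in each fibroblast-like cluster where it was measured (points, coloured by class) and in the whole pool (black bars). All points of Bmp5 and Gdf11 lie below 0 and all points of Bmp7 above it, while the pool bar of Bmp7 lies at -0.19.

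Other genes of the pathway were taken from lists of 75 genes in 6 groups. Among secreted antagonists and binding proteins, 14 of 17 were measured between the classes. In Foxl1-high-like cells of GF, 5 passed 1.5-fold upward and 8 downward, against 17.5% and 14.4% of all genes. In ff 4 and 7 did, against 12.8% and 13.7%. Grem1, the antagonist gremlin 1, stood at 1.41 CPM in Foxl1-high-like and 112 CPM in other cells of GF, and at 6.28 and 236 CPM in ff (log2 ratios -5.55 and -5.03). Chrdl1, a chordin-like BMP antagonist, had ratios of -3.76 and -3.40. Fst, the activin antagonist follistatin, stood at 360 and 27.97 CPM in GF and at 36.2 and 10.8 CPM in ff (3.64 and 1.66). Nbl1, a BMP antagonist of the DAN family, stood at 1982 and 355 CPM in GF and at 1575 and 302 CPM in ff (2.48 and 2.38). Between the libraries, Fst was higher in the GF pool, at 57.6 CPM against 15.4 CPM in ff (1.83), Chrdl1 was higher (0.69), and Grem1 was lower, at 102 CPM against 194 CPM (-0.92).

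Of 11 receptors and co-receptors measured in GF, 2 passed 1.5-fold upward in Foxl1-high-like cells and 5 downward, against 17.5% and 14.4% of all genes. Of 12 in ff none passed upward and 6 downward, against 12.8% and 13.7%. The co-receptors Rgmb (log2 ratio -1.98 in GF and -1.89 in ff), Tgfbr3 (-1.21 and -1.64) and Rgma (-1.001 and -0.86) and the activin receptor Acvr1b (-1.58 and -0.83) were lower. Bmpr1a stood at 107.6 CPM in Foxl1-high-like and 101.0 CPM in other cells of GF, and at 109 and 124 CPM in ff. Of the 5 SMADs, Smad1 (-1.06 and -1.16) and Smad3 (-0.60 and -0.61) were lower by 1.5-fold, and Smad2, Smad4 and Smad5 were within it. Between the pools no SMAD of this list passed 1.5-fold, and Acvr2b alone of 12 receptors did (0.63), against 4.87% of all genes upward.

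Of 10 response genes measured, Id1, a direct BMP target, was higher in the class, at 610 against 149 CPM in GF and 537 against 134 CPM in ff (log2 ratios 2.02 and 2.0002). Id2 was higher in ff (1.22) and at 0.46 in GF. Id4 (-2.09 and -0.95), Bambi, a decoy receptor (-1.19 and -0.78), and Msx1 (-0.84 and -0.91) were lower. That makes 1 higher and 3 lower in GF, against 17.5% and 14.4% of all genes. In ff 2 were higher and 3 lower, against 12.8% and 13.7%. Between the pools Smad9 (-0.91) and Id2 (-0.70) were lower in GF. Of the proteases that cleave precursors, Pcsk6 was higher in the class (1.77 and 1.15), Pcsk5 (-1.45 and -1.56) and Bmp1, which cleaves chordin, (-1.14 and -1.23) were lower, and Pcsk7 was at 0.72 and 0.46. Of 7 other family ligands measured among 21, Tgfb1 was higher in the class (0.92 and 0.83), and Tgfb3 (-2.13 and -2.18), Gdf6 (-1.92 and -1.28) and Lefty1 (-1.26 and -1.03) were lower, of 5 lower in GF and 4 in ff. Of all genes, 17.5% were higher and 14.4% lower in GF, and 12.8% and 13.7% in ff. No other family ligand passed 1.5-fold between the pools.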

How the data were processed

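Both libraries were made with 10x Genomics 3' v3.1 chemistry, per the labels' protocols. The authors deposited 1 table of UMI counts per Ensembl gene and cell barcode for each library, made with Cell Ranger 6.0.0 on mm10 per the submitters' processing notes. The annotation release, the barcode filter and whether strand was used are not given in the sources used here. Balb/c reads were aligned to a C57BL/6J genome, and the effect was not tested.

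The GF library held 16388 barcodes and 105331294 UMIs, and the ff library 13704 barcodes and 119866589 UMIs, with 55 barcodes in both. Of the 32285 genes, 32158 had a symbol. Barcodes with at least 500 genes and 1000 UMIs and at most 10% mitochondrial UMIs were kept, 15066 in GF and 12702 in ff. Scrublet then removed 767 GF and 538 ff barcodes as doublets (5.09% and 4.24%). Cells were clustered together with scanpy 1.11.5 and leidenalg 0.10.2 (2000 variable genes, 30 components, 15 neighbours, Leiden resolution 1), leaving out 85 genes, the ligands and the pathway lists, from the variable genes. A cluster was named from at least 3 markers that were at least 2-fold higher and by its top genes. Clusters without a name joined the fibroblast-like pool when their collagen level was at least 25% of that of the named fibroblast-like clusters. These naming thresholds were set after seeing the data. Names are rebuilt and may differ from the authors' own.

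UMIs were summed per class or cluster and library and divided by total UMIs, as CPM. Intervals are exact Poisson intervals for levels, exact conditional binomial intervals for ratios and exact Clopper-Pearson intervals for shares, all at 95%. They cover counting error only. With 1 library a group there is no replicate spread and no p-value. A gene counted as measured with at least 50 UMIs over both sides, and as called when the ratio passed 1.5-fold after adding 1 CPM, which understates the change of low genes. Intervals belong to ratios without the added CPM. The calculations were tested on simulated data.

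The ligands and lists were chosen with earlier results of these data known. All 10 ligands are named. For each, the 3 genes with the closest profile among those with at least 200 UMIs are named, and up to 4 genes a pathway list with the largest ratios. Gene positions came from GENCODE vM21 and promoters from RefSeq on GRCm38.p6. A comparison of the proteins was planned, but protein sequences were not used here. Alternatives covered scaling, pseudocount, filters on counts and cells, doublets, depth, clustering resolution, a gate by single markers and the make-up of clusters. A gene of the pathway lists is not reported here.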

Additional observations from a re-analysis of the deposited data

Results flagged for a closer look

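Some GF over ff differences had opposite signs in different classes, and the differences between classes were not tested. Bmp2 had a log2 ratio of 0.53 in Foxl1-high-like cells and -0.45 in other fibroblast-like cells. Bmp4 had 0.067 in Foxl1-high-like cells and -0.083 in other fibroblast-like cells. Inhbb had -1.13 in Foxl1-high-like cells and 0.39 in other fibroblast-like cells, on 27 GF and 170 ff UMIs in the class. Inhba had 1.39 in adventitial or submucosal-like cells and -0.68 in the unnamed fibroblast-like cells, where different clusters hold most cells of the 2 libraries.

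Gdf10 and Inhbb had signals in cells outside the fibroblast-like pool. Gdf10 stood at 527 CPM in GF and 110 CPM in ff in cells like interstitial cells of Cajal, which numbered 31 in GF and 18 in ff. Inhbb stood at 50.6 CPM in GF and 27.1 CPM in ff in endothelium-like cells, although the sort was against CD31. Its UMIs lay in blood endothelium-like cells, with 22 UMIs in 23 GF cells and 13 UMIs in 30 ff cells, and none in the 53 GF and 41 ff lymphatic endothelium-like cells.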

How the results depend on the processing

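No result reversed in its summed level or counts, but the summed GF over ff difference was almost gone with GF clusters weighted by ff shares. Under this weighting Bmp3 (0.73) took the place of Gdf10 (0.52) as the ligand at least 1.5-fold higher in GF. The summed GF over ff log2 ratio of -0.36 was -0.39 with median-of-ratios scaling, -0.43 with a stricter cell filter, -0.37 with doublets kept, -0.32 with cells thinned to 2000 UMIs and -0.0045 with GF clusters weighted by ff shares. The summed Foxl1-high-like over other ratio of 2.03 in GF was 1.79, 2.13, 1.93 and 1.96 under the first 4 of these and 1.34 with the gate by single markers. In ff the ratio of 1.70 was 1.54 with median-of-ratios scaling, 1.64 with doublets kept, 1.71 thinned and 1.07 with the gate. The ligands lower in the GF Foxl1-high-like class numbered 2 rather than 1 with median-of-ratios scaling, a pseudocount of 0.1 CPM, no pseudocount, the stricter cell filter or Leiden resolution 0.5. Of 338 alternative values for single ligands in 30 comparisons, 334 kept the sign and 324 the call. The 4 sign changes came with the weighting by ff shares, for Bmp2 (0.29), Bmp4 (0.02), Bmp7 (0.51) and Inhba (0.23). The cause of these changes was not tested. Inhbb, and Gdf10 in Foxl1-high-like cells, are limited by depth. No paired analysis was possible because each group has 1 library and the labels give no replicate numbers.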
